A study of Mus musculus with 12 samples.

Results

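The inner root sheath is the sleeve of cells that surrounds and moulds a growing hair inside its follicle. It is built from a set of keratins of its own, and 7 of these were measured here in mouse back skin: the type I genes Krt25, Krt26, Krt27 and Krt28 and the type II genes Krt71, Krt72 and Krt73. They were picked by symbol from the 18505 genes of the deposited table. The rule also named Krt74, which RefSeq lists in the mouse as a transcribed pseudogene and which was not analysed here.

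Keratin filaments are obligate pairs of a type I (acidic) and a type II (basic) chain. Krt25, Krt27, Krt28 and Krt71 are made throughout the Henle layer, the Huxley layer and the cuticle of the sheath, whereas Krt26, Krt72 and Krt73 belong to the sheath cuticle. The sheath is built only while the follicle is in its growing phase (anagen), and mouse alleles of Krt71 and Krt25 give curly or wavy coats.

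The 12 samples were whole back skin of shaved male wild-type BALB/c mice of 5 to 6 weeks, taken on day 10, in 3 groups of 4. Control mice were given petroleum jelly. The IMQ + NS mice were given imiquimod cream, a Toll-like receptor agonist that brings on psoriasis-like inflammation, followed after 6 h by a cover of 0.9% NaCl. In the IMQ + BZLF mice the cover was BZLF, a mixture of herbs and cicada slough, after the same cream. The dose given to the sequenced mice was not stated in the sources used here. Both covers were held in place with gauze and polyurethane film, and the paper describes no cover for the controls. Imiquimod and the cover therefore cannot be told apart in comparisons with the controls. The 8 imiquimod-treated samples are called lesions below. The 4 samples of a group were labelled as separate samples and nothing tied a number in one group to the same number in another. No label names the animal behind a sample, so p-values measure the spread between these samples.

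Values are FPKM, fragments scaled to transcript length and to the mapped fragments of the sample, so levels can be set side by side between genes. Whole skin was extracted, so a change in the number of sheath cells and a change in RNA per sheath cell cannot be told apart. Keratins are alike in sequence, and the counting could have split reads between them. Of the 31-base words in the annotated transcripts, 17.8% of those of Krt27 and 15.7% of those of Krt25 also occurred in another keratin, mostly in each other. The share was 5.77% for Krt28, 5.15% for Krt71, 4.44% for Krt73 and 2.50% for Krt72, and no shared word was found for Krt26, so the split between Krt25 and Krt27 is the least certain.

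The genes lie in the 2 keratin clusters of the mouse genome, all on the minus strand (GRCm38, RefSeq). The type I members are neighbours on chromosome 11: Krt25 at chr11:99315516-99322951, Krt26 at chr11:99328484-99337965, Krt27 at chr11:99345565-99351118 and Krt28 at chr11:99365007-99374903. The type II members lie on chromosome 15, with Krt71 at chr15:101733949-101743097, Krt72 at chr15:101776172-101786520 and Krt73 at chr15:101793304-101802360. The 4 type I genes span 59.4 kb and the 3 type II genes 68.4 kb.

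The 80 bases before each annotated start (RefSeq, GRCm38.p6, minus strand, 5' to 3') are shown because these 7 genes moved together and their core promoters can be compared by eye. Capitals mark TATAAA, the core of the TATA box.
Krt25, chr11:99322952-99323031: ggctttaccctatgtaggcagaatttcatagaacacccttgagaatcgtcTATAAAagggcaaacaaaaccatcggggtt
Krt26, chr11:99337966-99338045: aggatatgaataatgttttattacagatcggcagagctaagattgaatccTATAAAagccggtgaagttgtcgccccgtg
Krt27, chr11:99351119-99351198: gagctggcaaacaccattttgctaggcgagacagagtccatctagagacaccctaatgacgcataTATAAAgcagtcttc
Krt28, chr11:99374904-99374983: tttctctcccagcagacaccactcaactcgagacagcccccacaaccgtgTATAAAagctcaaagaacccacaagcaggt
Krt71, chr15:101743098-101743177: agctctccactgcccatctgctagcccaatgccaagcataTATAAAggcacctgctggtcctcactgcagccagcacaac
Krt72, chr15:101786521-101786600: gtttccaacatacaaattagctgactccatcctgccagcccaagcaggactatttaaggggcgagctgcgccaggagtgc
Krt73, chr15:101802361-101802440: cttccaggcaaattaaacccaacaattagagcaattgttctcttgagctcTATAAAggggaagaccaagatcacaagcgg

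The TATAAA began 30 bases before the start in Krt25, Krt26, Krt28 and Krt73, 40 bases before it in Krt71 and 15 bases before it in Krt27. On the gene's own strand it lay within the last 40 bases before the start in 6 of the 7 genes, against 2.55% of 27025 mouse promoters. Krt72 had none in this window.

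The 250 bases before the start were then searched on both strands for 4 motifs. TATAAA was found in 7 of 7 members against 13.0% of promoters, and in Krt72 it was on the opposite strand. TAATTA, a core that homeodomain proteins can bind, was found in 4 members (Krt25, Krt28, Krt71 and Krt73) against 4.90%. CTTTGA, a core of the sites of the Lef1 family, was found in 1 member (Krt28) against 14.0%. AGATAA, which GATA factors can bind, was found in 4 members against 10.3%, and is shown because Gata3 is a regulator of the inner root sheath. The 40 bases around each are given with AGATAA in capitals.
Krt25, chr11:99323123-99323162: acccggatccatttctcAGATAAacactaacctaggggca
Krt27, chr11:99351279-99351318: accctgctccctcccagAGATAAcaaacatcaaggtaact
Krt71, chr15:101743300-101743339: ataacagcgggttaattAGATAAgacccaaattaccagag
Krt73, chr15:101802520-101802559: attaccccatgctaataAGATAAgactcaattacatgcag
In Krt71 the last base of TAATTA is the first of AGATAA. These are matches of letters and not measured sites of binding.

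Before the comparisons, one control sample has to be described. In control replicate 2 the 7 keratins summed to 1771 FPKM, against 51.4, 16.9 and 15.7 FPKM in control replicates 1, 3 and 4. The sums were 6780 to 8713 FPKM in the IMQ + NS samples and 8445 to 11896 FPKM in the IMQ + BZLF samples. Control replicate 2 therefore lay between the other controls and every lesion for all 7 genes. For comparisons with the control group, values without this sample are given below for the 7 keratins, and for other genes and lists where a fold moved by over 1.5 times or a count changed.

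Other genes in this sample moved too. The summed FPKM of 10 cell cycle genes was 231.7 in control replicate 2, against 24.1 to 41.0 in the other controls and 174 to 214 in the IMQ + NS samples. The summed FPKM of 6 melanocyte genes was 256 against 42.8 to 63.6 in the other controls, and that of 8 skeletal muscle genes was 3413 against 7690 to 8368. Pigment cells and dividing matrix cells are parts of a growing follicle. The part of these cells in the level of the sheath keratins was not tested.

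Among the type I keratins, Krt25 had 13.1, 484, 3.39 and 3.91 FPKM in control replicates 1 to 4, then 2011, 1691, 1626 and 2127 in the IMQ + NS samples and 2750, 2090, 1859 and 2043 in the IMQ + BZLF samples. Krt27 had 8.24, 281, 2.93 and 3.13 FPKM in the controls, 1708, 1346, 1354 and 1612 in IMQ + NS and 2285, 2059, 1736 and 1657 in IMQ + BZLF samples. For both genes every lesion was above the highest control, which was replicate 2, and the lesion groups overlapped.

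Krt28 had 7.78, 139, 2.71 and 2.36 FPKM in the controls, 366, 323, 293 and 423 in IMQ + NS and 586, 396, 421 and 372 in IMQ + BZLF samples. Krt26, the type I keratin of the sheath cuticle, was the lowest of the 7 in every one of the 12 samples. Its values were 0.664, 15.2, 0.177 and 0.268 FPKM in the controls, 192, 152, 148 and 189 in IMQ + NS and 286, 288, 231 and 191 in IMQ + BZLF samples. Its IMQ + BZLF and IMQ + NS ranges met only at their edges, 191 against 192 FPKM.

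Among the type II keratins, Krt71 had 14.6, 638, 6.36 and 5.04 FPKM in the controls, 3351, 2799, 2739 and 3472 in IMQ + NS and 4745, 3638, 3296 and 3396 in IMQ + BZLF samples. It was the highest of the 7 in all 12 samples. Krt72, of the sheath cuticle, had 1.58, 20.8, 0.622 and 0.435 FPKM in the controls, 339, 275, 294 and 381 in IMQ + NS and 573, 501, 429 and 343 in IMQ + BZLF samples. Krt73, also of the cuticle, had 5.44, 193, 0.702 and 0.530 FPKM in the controls, 440, 385, 327 and 509 in IMQ + NS and 672, 447, 473 and 484 in IMQ + BZLF samples. Every lesion was above every control for these 3 genes as well, and 6 of the 7 had their highest value in IMQ + BZLF replicate 1.

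**Figure D1:**
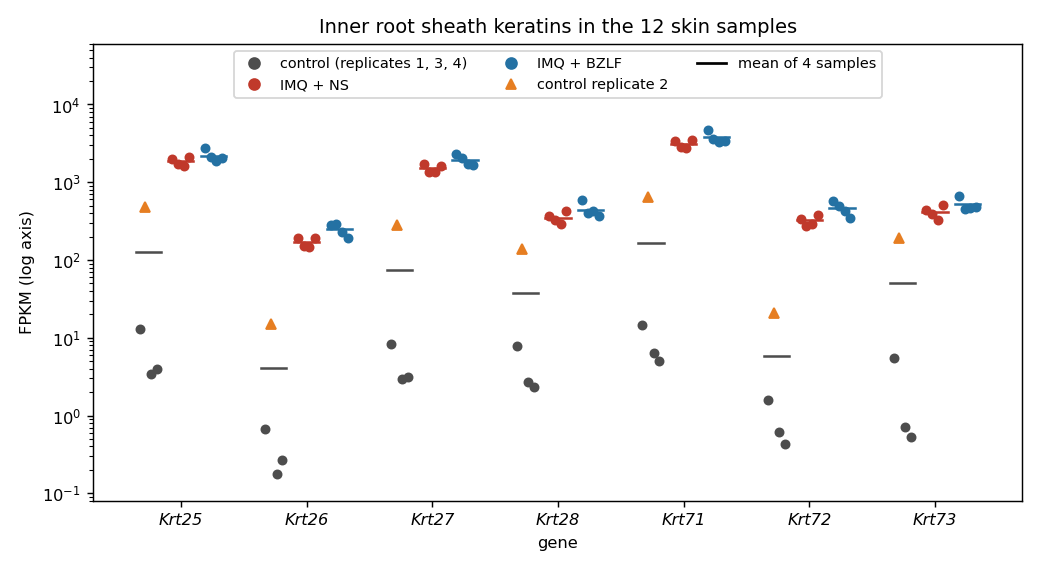
FPKM of the 7 inner root sheath keratins on a log axis, 1 point per sample with the groups in the order control, IMQ + NS, IMQ + BZLF (n = 4 each), a bar at each mean and control replicate 2 as a triangle. Control replicate 2 lies between the other controls and the lesions for every gene, for example at 484 FPKM for Krt25, and the lesion groups overlap.

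The first question was how lesions differed from control skin. All 7 keratins were called higher in the 4 IMQ + NS samples than in the 4 controls (a change of over 1 on the log2 scale with an adjusted p below 0.05, by limma on log2(FPKM + 0.1)), with no overlap between the groups. Of the 15288 genes tested, 22.4% were called, 11.4% as higher and 11.0% as lower, and 23.7% were higher with no overlap. The median log2 fold change of the 7 was 6.93, against 0.053 over all genes tested.

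Krt25 averaged 126 ± 239 FPKM (SD, n = 4) in the controls and 1864 ± 243 in IMQ + NS, and its log2 fold change was 6.74 (standard error, SE, 1.38, limma adjusted p = 0.00335). Krt27 rose from 73.9 ± 138 to 1505 ± 183 FPKM, or by 6.93 (SE 1.28, adjusted p = 0.00197). For Krt28 the means were 37.9 ± 67.2 and 351 ± 56.4 FPKM, the smallest change of the 7 at 5.22 (SE 1.13, adjusted p = 0.00437). Krt26 went from 4.08 ± 7.42 to 170 ± 23.4 FPKM, a change of 7.34 (SE 1.11, adjusted p = 6.7e-04).

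On the type II side, Krt71 averaged 166 ± 315 FPKM in the controls and 3090 ± 375 in IMQ + NS, and its log2 fold change was 7.02 (SE 1.35, limma adjusted p = 0.00238). Krt72 went from 5.86 ± 9.98 to 322 ± 47.9 FPKM, the largest change of the 7 at 7.38 (SE 1.0, adjusted p = 3.9e-04). Krt73 had the largest SE, with means of 49.9 ± 95.4 and 415 ± 77.7 FPKM and a change of 6.41 (SE 1.59, adjusted p = 0.00858). In each of the 7 genes the SD of the controls was larger than their mean, with control replicate 2 as the far value.

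Without control replicate 2, the controls averaged 6.80 ± 5.46 FPKM for Krt25, 8.67 ± 5.19 for Krt71 and 0.370 ± 0.259 for Krt26 (SD, n = 3). The 7 log2 fold changes then ran from 6.52 to 8.63, with adjusted p from 3.5e-07 to 2.0e-05 (limma), and each fold moved by over 1.5 times. Without control replicate 3 they ran from 4.65 to 6.91, which moved 5 genes by that much, and without control replicate 4 from 4.58 to 6.84, which moved 6. All 7 genes were called higher in each of these fits.

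The second question was whether BZLF changed the level in lesions. None of the 7 keratins was called different between the IMQ + BZLF and IMQ + NS samples, where 2.52% of genes tested were called, 0.321% higher and 2.20% lower. At an unadjusted p under 0.05 there were 3 (Krt26, Krt27 and Krt72), where 22.7% of all genes passed the same limit. All 7 fitted differences were above zero, as were 6872 of the 15288 genes. Their median was 0.33 on the log2 scale, against -0.023 over all genes, and the groups overlapped for each gene, while 4.24% of all genes were higher with no overlap.

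The largest difference was that of Krt26, with 249 ± 46.7 FPKM after BZLF, a log2 fold change of 0.54 (95% interval 0.20 to 0.87, adjusted p = 0.0652 from limma). Next was Krt72 with 461 ± 98.2 FPKM and 0.50 (0.14 to 0.87, adjusted p = 0.106). The other cuticle keratin, Krt73, had 519 ± 103 FPKM and 0.32 (-0.044 to 0.69, adjusted p = 0.276).

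The keratins found in all the layers of the sheath had intervals of similar width. Krt27 had 1934 ± 291 FPKM after BZLF and a difference of 0.36 (0.056 to 0.66, adjusted p = 0.153), and Krt28 had 444 ± 96.8 FPKM and 0.33 (-0.029 to 0.69, adjusted p = 0.256). Krt71, with 3769 ± 667 FPKM, differed by 0.28 (-0.058 to 0.62, adjusted p = 0.303) and Krt25, with 2185 ± 389 FPKM, by 0.22 (-0.11 to 0.55, adjusted p = 0.404). The upper bounds, at most 0.87, lay below a doubling for all 7 genes.

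Single lesions moved these values. Without IMQ + BZLF replicate 4, Krt26 had a difference of 0.66 (adjusted p = 0.0268) and Krt72 of 0.64 (adjusted p = 0.0394, limma), which passed the limit on p and not that on the fold. Without IMQ + BZLF replicate 1, the sample with the highest sum, the median of the 7 was 0.19.

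Against the controls, which are the same 4 samples as above, all 7 keratins were also called higher in the IMQ + BZLF samples, with no overlap. Of all genes tested, 9.65% were called higher and 19.4% were higher with no overlap. The log2 fold changes were 6.97 for Krt25, 7.88 for Krt26, 7.28 for Krt27 and 5.55 for Krt28 among the type I genes. They were 7.30 for Krt71, 7.88 for Krt72 and 6.73 for Krt73 among the type II genes, with adjusted p from 4.1e-04 to 0.00736 (limma). Without control replicate 2 they ran from 6.85 to 9.17, without control replicate 3 from 4.97 to 7.41 and without control replicate 4 from 4.91 to 7.37.

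**Figure D2:**
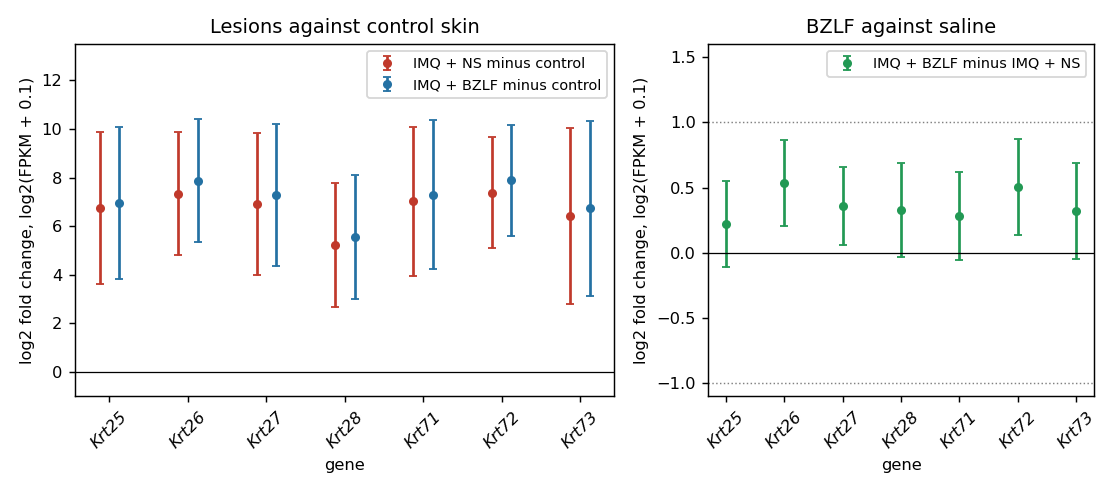
Log2 fold change of each of the 7 keratins in the 3 comparisons, as points with bars for the 95% intervals from limma (n = 4 per group), where dotted lines mark 1 and -1 on the log2 scale. The changes against the controls lie at 5.22 or above, and those of IMQ + BZLF against IMQ + NS lie between 0.22 and 0.54.

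Control replicate 2 was set against the mean of the other 3 controls on the log2 scale, as a description of 1 sample with no test. All 7 keratins were higher in it by over 1, as were 8.46% of all genes tested (2.98% were lower by as much), and the median of the 7 was 6.02 against 0.15 over all genes. Krt73 was furthest up, at 86.8 times the mean of the other controls, and Krt72 least, at 23.7 times. Between them lay Krt71 at 73.6, Krt25 at 71.1, Krt27 at 59.0, Krt26 at 41.1 and Krt28 at 32.4 times.

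The sample had not gone equally far for each gene. Taking the distance on the log2 scale from the other controls to the IMQ + NS mean, Krt73 had covered 86.7% of it and Krt28 79.7%, whereas Krt26 had covered 59.8% and Krt72 53.9%. The IMQ + NS mean was still 2.15 times the value of control replicate 2 for Krt73 and 15.5 times for Krt72, although both are keratins of the sheath cuticle. The ratio of Krt73 to Krt72 was 9.27 in this sample, 3.44 in control replicate 1, 1.13 and 1.22 in the remaining controls and between 0.894 and 1.41 in the 8 lesions.

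Genes of the hair shaft, the fibre inside the sheath, were placed in the same way. The median share of the log2 distance was 73.7% for the 7 sheath keratins, 31.7% for 9 type I shaft keratins and 18.5% for 7 type II shaft keratins. The other genes of the inner root sheath went both ways: of 9, 6 were higher in control replicate 2 by over 1 on the log2 scale and 1 was lower, with a median of 2.89. Padi3 (5.58) and Tchh (5.45) were furthest up by this difference, and Gata3 (0.70) and Fam83g (0.52) were under 1. The order by share of the log2 distance was another. Cux1 was at 88.7%, Gata3 at 82.0% of a short distance (0.85), Dlx3 at 78.8%, Padi3 at 67.0% and Tchh at 64.1%. Padi1 was at 53.7%, Tchhl1 at 33.4% and Fam83g at 22.6%. Tgm3 was lower, at 0.345 times the mean of the other controls. Its values in control replicates 1 to 4 were 2.92, 3.39, 12.7 and 13.9 FPKM, so control replicate 1 was lower still. Within the shaft lists Krt35 (6.64 above the other controls on the log2 scale) and Krt85 (5.89), which were picked out after their values were seen, stood nearest to the sheath keratins. The sum of the shaft keratins divided by the sum of the sheath keratins was 0.185 in control replicate 2, 0.723 to 1.07 in the other controls and 0.985 to 1.19 in the lesions.

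Control replicate 1 was also above control replicates 3 and 4 for all 7 keratins, by 2.56 to 8.83 times their mean.

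**Figure D3:**
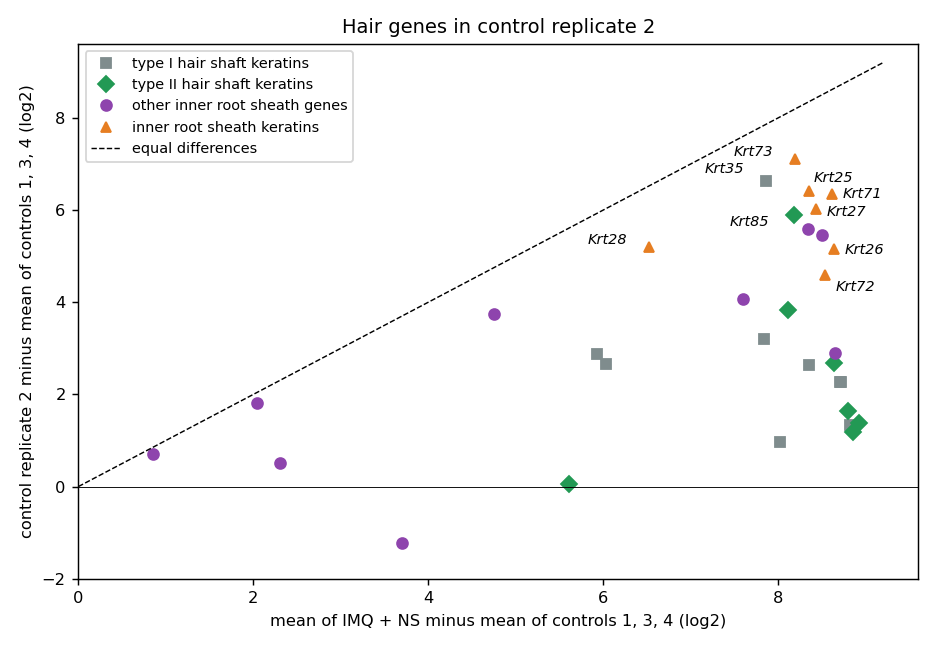
Difference of control replicate 2 from the other 3 controls (vertical, log2 scale) against the difference of the IMQ + NS mean from those controls (horizontal, log2 scale), 1 point per gene of the sheath keratin, other sheath gene and shaft keratin lists. The sheath keratins lie nearer the line of equal difference (54% to 87% of the distance) than most shaft keratins.

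The balance of the chains was then examined. The summed FPKM of the type I members divided by that of the type II members was 1.38, 1.08, 1.20 and 1.61 in the controls, 0.997 to 1.04 in IMQ + NS and 0.986 to 1.05 in IMQ + BZLF samples. In the lesions the 2 chain types were thus close to equal in summed FPKM, and in all 4 controls the type I sum was the higher. Control replicates 3 and 4 rest on sums under 10 FPKM per type.

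Within the sum, Krt71 made up 38.6% to 40.4% in the lesions and 28.4% to 37.7% in the controls. Krt28 took a larger share in the controls, with 15.1%, 7.83%, 16.1% and 15.04% against 4.21% to 4.99% in the lesions. The ratio of Krt25 to Krt26 was 19.7, 31.8, 19.2 and 14.6 in the controls, 10.5 to 11.2 in IMQ + NS and 7.27 to 10.7 in IMQ + BZLF samples. The order Krt71, Krt25, Krt27 held in all 12 samples.

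In the middle of the order, ranks changed. Krt28 stood above Krt73 in control replicates 1, 3 and 4, and Krt73 stood above Krt28 in the other 9 samples. In IMQ + NS the ranges of Krt71 and Krt25, of Krt27 and Krt73 and of Krt72 and Krt26 did not overlap, while those of Krt25 and Krt27, of Krt73 and Krt28 and of Krt28 and Krt72 did. Together the 7 genes made up 0.00345% to 0.398% of all FPKM in the controls, 1.34% to 1.76% in IMQ + NS and 1.71% to 2.41% in IMQ + BZLF samples.

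**Figure D4:**
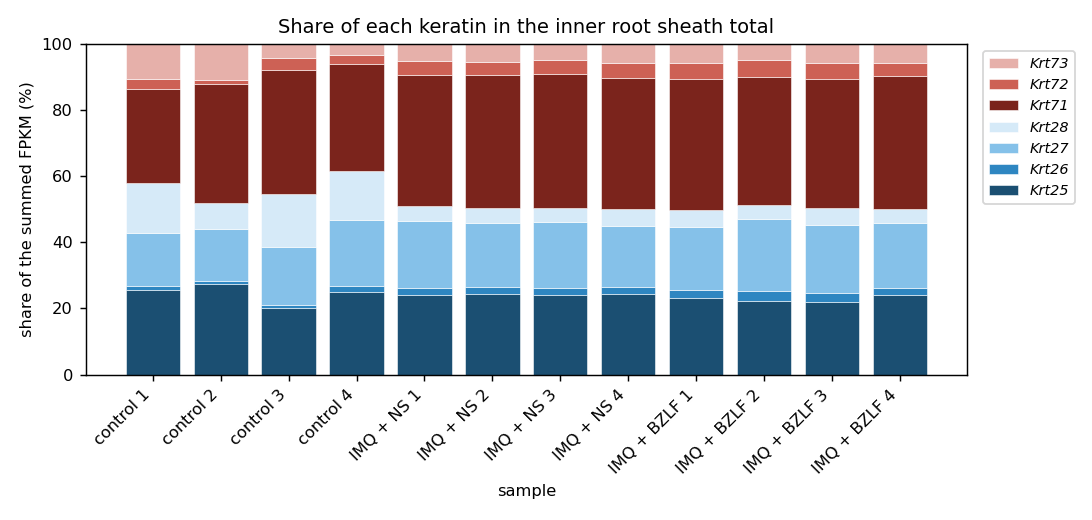
Share of each keratin in the summed FPKM of the 7, in percent, for each of the 12 samples. Krt28 takes 15.04% to 16.1% in control replicates 1, 3 and 4, 7.83% in control replicate 2 and less than 5% in the lesions.

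Other genes of the inner root sheath were read from a list of 9. Of these 8 were called higher in IMQ + NS than in the controls and 0 lower, with a median log2 fold change of 4.0, and the same numbers were called in IMQ + BZLF against the controls. Tchh, trichohyalin, the filler protein of the sheath to which the keratins are bound, rose by 7.14 (adjusted p = 9.3e-04 from limma), and its relative Tchhl1 by 7.92 (adjusted p = 2.2e-05). The peptidylarginine deiminases Padi1 and Padi3, which act on trichohyalin, rose by 6.57 and 6.94, and Tgm3, a transglutaminase that crosslinks it, rose by 4.0. Without control replicate 2 the list had 8 genes called and a median of 4.75, with Tchh at 8.50, Tchhl1 at 8.64, Padi1 at 7.59 and Padi3 at 8.33. Without control replicate 3, Padi3 was at 6.33.

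Among regulators of the sheath, Dlx3 rose by 3.81, Fam83g, mutated in the wooly mouse, by 2.17 and Cux1 by 1.59 (adjusted p from 2.0e-05 to 0.00783). Without control replicate 2, Dlx3 was at 4.75. Gata3, a factor of sheath cell fate that other skin cells also make, had 26.2 FPKM in IMQ + NS and 16.6 in the controls, a log2 fold change of 0.67 (adjusted p = 0.0162) that missed the limit on the fold. None of the 9 was called between IMQ + BZLF and IMQ + NS. An unadjusted p under 0.05 was found for 4 of them (Tchh, Tchhl1, Padi1 and Padi3), where 22.7% of all genes tested passed that limit. Their differences there ran from -0.15 (Tgm3) to 0.74 (Tchhl1).

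Genes of the layers outside the sheath were read next. Krt75, the keratin of the companion layer next to the sheath, rose by 4.72 in IMQ + NS (adjusted p = 9.7e-04 from limma), or by 5.64 without control replicate 2, and had a difference of 0.23 after BZLF (adjusted p = 0.239). Of the 8 genes of the companion layer and outer root sheath, 7 were called higher in IMQ + NS than in the controls, Krt79 with 0.41 being the exception, and 4 were called lower in IMQ + BZLF than in IMQ + NS. These were Krt16, with a fall of 4.95 (adjusted p = 0.00183), Krt6b, with a fall of 4.42 (adjusted p = 8.8e-04), Krt6a, with a fall of 2.39 (adjusted p = 0.00167), and Krt14, with a fall of 1.54 (adjusted p = 0.00571).

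Those 4 keratins are also made by the epidermis between follicles, Krt14 in its basal layer and the rest when it is stressed or hyperproliferative. The others of the list differed by -0.44 (Krt17), -0.55 (Krt79) and -0.78 (Krt5, adjusted p = 0.0183, below the limit on the fold). Whether sheath keratins differ from these in their response to BZLF was not tested.

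For the hair shaft, all 9 type I and all 7 type II shaft keratins were called higher in IMQ + NS than in the controls, with medians of 7.68 and 7.96 on the log2 scale. Without control replicate 2 all were again called, with medians of 8.02 and 8.63. After BZLF 0 of the 16 was called, with medians of 0.30 and 0.35. The most abundant were Krt33a (8.13 in IMQ + NS against control) and Krt34 (8.49) among type I and Krt83 (8.38) and Krt81 (8.58) among type II genes. At an unadjusted p under 0.05 there was 1 of the 16 shaft keratins after BZLF, where 22.7% of all genes tested passed that limit.

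Marker lists of other cells in whole skin also differed between the groups, not always in the direction of the sheath keratins. In IMQ + NS against control samples, 9 of 10 cell cycle genes and 5 of 6 melanocyte genes were called higher, and 8 of 8 skeletal muscle, 5 of 6 dermal fibroblast and 5 of 7 adipocyte genes were called lower. The cell cycle count rested on which controls were used: it was 10 without control replicate 2, and 1, 1 and 0 without control replicates 1, 3 and 4. The median of that list was 1.91, and 2.64 without control replicate 2. The melanocyte median was 3.14, and 4.17 without that sample. The melanocyte count was 5, 5, 4 and 3 without control replicates 1 to 4, and 6 adipocyte genes were lower without control replicate 2. Without control replicate 3 the melanocyte median was 2.56. The skeletal muscle sum was 3413 to 8368 FPKM in the controls and 632 to 1550 in IMQ + NS. Summed neutrophil genes were at 39.5 to 56.8 FPKM in the controls, 3128 to 9890 in IMQ + NS and 65.1 to 85.1 in IMQ + BZLF samples. That sum is nearly all S100a8 and S100a9 (means of 3010 and 2909 FPKM in IMQ + NS), which keratinocytes also make. Of the 7 neutrophil genes, 6 were called higher in IMQ + NS than in the controls and 1 was called lower. The lower one was Mpo, named after its values were seen, which went from 6.97 FPKM in the controls to 1.02 in IMQ + NS. No gene of these 6 lists was at 0 in all samples. Their part in the level of the sheath keratins was not tested.

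Finally, genes were ranked by how closely their log2(FPKM + 0.1) followed the mean of the 7 keratins over the 12 samples, among 12650 genes with a mean of at least 1 FPKM. The closest was S100a3, a calcium-binding protein of the hair cuticle, with a Pearson r of 0.998. The next were Gjb2, Krt85, Tchh, Padi3, Crnn, Rnf180, Samd5, Tubb3 and Hoxc13, each at 0.997. Since r over all samples mostly follows the gap between controls and lesions, it was also computed on deviations from the group means, where the closest were S100a3 (0.998), Hoxc13 (0.996), Calhm4 (0.995), Kif20a (0.995) and Bnc1 (0.994). By deviations 1564 genes had an r above 0.9 with all 12 samples and 93 without control replicate 2, so most of that likeness rested on this sample. The samples share library preparation and sequencing, and these values are a description.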

How the data were processed

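RNA from 12 samples of whole mouse back skin, 4 per group, was measured by RNA-seq. The deposited values are FPKM, 1 per gene and sample, which the authors made from their reads, not pooled and not on a log scale. The paper's methods name Bowtie2, eXpress and DESeq2 and a TruSeq kit, whereas the submitters' processing notes name fastp, HISAT2, HTSeq, R 3.2.0 and mm10, and the labels another extraction reagent and kit. Which applies was not settled. Counts were not used, the depth of each sample is unknown, and precision rests on the 4 replicates. Of 10312 low values 43.8% came within 0.05 of being whole multiples of the gene's lowest value. Those multiples were taken across samples, so they do not give the depth of any sample. FPKM summed to 444660 to 506622 per sample.

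Genes whose mean FPKM reached 0.1 (15288 of 18505) were fitted as log2(FPKM + 0.1) with limma 3.58.1 in R 4.3.3, each pair of groups separately, with a variance trend and Benjamini-Hochberg adjustment. Calls were made where the change was larger than 1 on the log2 scale in either direction and the adjusted p was below 0.05. The added constant understates fold changes of low genes. Python 3.11.15, pandas 2.3.3 and matplotlib 3.10.9 made the summaries. The members and gene lists were chosen with earlier results of these data known. Genes named were the 7 members and all genes of the sheath and of the companion layer and outer root sheath lists. The 2 most abundant genes of each shaft keratin list and of the neutrophil list were named too. The remaining lists of other cells were given as counts and sums without gene names. Also named were the 10 genes most like the members over the samples and the 5 most like by deviations. Krt35, Mpo and the genes most like the members without control replicate 2 were named outside this rule or after their values were seen. Alternatives were constants of 0.01 and 1, other filters, median ratio, equal sum and quantile scaling, all 12 samples in 1 fit, no trend, robust moderation, sample weights, a replicate block, other call rules and leaving out each sample. Promoters and positions are RefSeq, GRCm38.p6, the build that mm10 names. Transcripts were compared by 31-base words among 55 keratin genes of GENCODE. Protein sequences were not used here.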

Additional observations from a re-analysis of the deposited data

Results flagged for a closer look

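Of the 21 groups of 4 values (7 keratins in 3 groups), 8 held a sample whose gap to its nearest neighbour was too large a part of the range of its group by Dixon's criterion at the 95% level. The criterion was applied to FPKM and not on the log2 scale of the fits, so it gives more weight to high values. Chance gives about 1 in 20 such groups where values are normally spread, and the 7 keratins are not independent of each other. Control replicate 2 had been set apart before this check, so its flags describe a single sample again and add no support. Control replicate 2 was the highest control for all 7, with 484 FPKM for Krt25, 15.2 for Krt26, 281 for Krt27, 139 for Krt28, 638 for Krt71, 20.8 for Krt72 and 193 for Krt73. In the IMQ + BZLF group, Krt73 stood apart in replicate 1, with 672 FPKM.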

How the results depend on the processing

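In each of the 3 comparisons the number of the 7 keratins called (7, 0 and 7) was the same under all 22 alternatives. All 462 values of a keratin's fold change under them kept the direction and the side of the call. Many of these could not move the fold. Other filters, all 12 samples in 1 fit, no trend, robust moderation and the replicate block left it as it was, and the other call rules used the main fit. Sizes did move: with sample quality weights the median of the 7 in IMQ + NS against control was 8.55 instead of 6.93, and with a constant of 1 it was 6.56, with Krt26 at 6.08 instead of 7.34. Leaving out each sample in turn gave 7 to 7, 0 to 0 and 7 to 7 calls. Over all genes, counts moved by over 1.5 times under some settings. With a constant of 1, lower calls in IMQ + NS against control fell to 1023 from 1678, calls in IMQ + BZLF against IMQ + NS were 17 higher and 188 lower instead of 49 and 336, and calls in IMQ + BZLF against control were 979 higher and 865 lower instead of 1475 and 1542. With no limit on the fold they were 4427 and 4142, then 195 and 791, then 3640 and 4458. At an unadjusted p with the limit on the fold kept, 88 genes were higher after BZLF. With the main rule, leaving out 1 lesion gave 19 to 78. Equal sums moved the median of all genes to -0.116 in IMQ + BZLF against control. Whether the numbers in the labels pair samples was not settled. Same-numbered samples correlated at -0.224 to 0.237, -0.0474 to 0.378 and -0.133 to 0.252 in the 3 comparisons, and 2 of 4 samples correlated best with their own number. The correlation was above zero in all 3 comparisons for numbers 3 and 4, below zero in all 3 for number 2 and mixed for number 1. With the replicate number as a block, 7, 0 and 7 keratins were called, and 47 genes higher and 335 lower after BZLF. Because depth is unknown, the counting error of control values under 1 FPKM cannot be given.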

Other observations

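Without control replicate 2, the genes whose deviations from the group means followed the 7 keratins most closely over 11 samples were Krt85 (Pearson r = 0.974), Gm9508 (0.971), S100a3 (0.968), Gm10272 (0.968) and Ddit4l (0.967). This ranking was added after the data were seen, and it is a description with no test. Over all 12 samples, with the group means left in, Ddit4l had an r of -0.80.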
